A study of Mus musculus with 15 samples.

Results

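Of 9 genes of the NRF2 antioxidant pathway measured in mouse duodenal organoid monolayers, 1 passed the study's threshold after exposure to a dietary protein source. Gclc, which encodes the catalytic subunit of the rate-limiting enzyme of glutathione synthesis, rose 1.64-fold with yellow mealworm (adjusted p = 0.124 in limma). Of all genes, 3.87% passed in either direction with this source, and 1.63% to 3.85% with each of the others. The call was lost when medium control replicate 2 or 3 was left out. With replicate 1 as the only medium control array the log2 difference was 0.0038. The other 8 of the 9 genes were Gclm, Gsr, Hmox1, Txnrd1, Srxn1, Prdx1, Nfe2l2 and Keap1. All 9 were chosen by name as known parts of the pathway, and each was represented by the probe set of that symbol with the highest mean over all arrays. They are 9 of 18820 genes with a symbol on the array. The cells came from the duodenum of C57BL/6J mice, females at an age of 9 weeks. They were grown as organoids, dissociated and plated, and each monolayer was exposed for 6 h to the soluble fraction of a protein source or to DMEM alone. The labels give the concentration as 4% w/v, and the study's text also gives another that differs from it, so the dose is uncertain. The sources were casein from cow's milk (CAS), soybean meal (SBM), spray-dried plasma protein from pig blood (SDPP) and yellow mealworm larvae (YMW), and the medium control is called MC. Each sample pooled 3 wells, there were 3 arrays per group and 15 in all, and the labels do not say which mouse gave which replicate number. The monolayers hold epithelium without the immune cells, vessels and connective tissue of the gut wall.

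NRF2, the protein of Nfe2l2, is a transcription factor that is held at a low level by KEAP1, which presents it for degradation. Electrophiles and oxidants modify cysteines of KEAP1, NRF2 then accumulates, and with small MAF proteins it binds antioxidant response elements in the DNA of genes for glutathione synthesis, haem breakdown and the thioredoxin system. In the intestinal epithelium the pathway serves the handling of dietary electrophiles and the detoxification of absorbed compounds. Much of this control acts on the NRF2 protein, which an array of RNA does not measure.

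The core of the antioxidant response element, TGACNNNGC on either strand, was looked for in RefSeq promoter windows of build GRCm38.p6 that run from 250 bases before a transcript's start to 50 bases after it. Of 32851 windows of this length in the mouse, 12.4% held the core. For 6 of the 9 genes a window was given, 8 windows in all, and 5 windows of 5 genes held 1 match each. The matches before the start are given in capitals, to show what these promoters have in common, and each sequence ends at the base before the start. Gclm lies at chr3:122245407-122245556 on the plus strand, Txnrd1 in the middle one of its 3 windows at chr10:82859056-82859205 on the plus strand, Prdx1 at chr4:116685449-116685598 on the plus strand and Nfe2l2 at chr2:75704664-75704913 on the minus strand.
Gclm: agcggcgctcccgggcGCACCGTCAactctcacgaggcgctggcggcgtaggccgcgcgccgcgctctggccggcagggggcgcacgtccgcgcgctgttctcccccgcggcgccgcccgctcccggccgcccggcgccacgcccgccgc
Txnrd1: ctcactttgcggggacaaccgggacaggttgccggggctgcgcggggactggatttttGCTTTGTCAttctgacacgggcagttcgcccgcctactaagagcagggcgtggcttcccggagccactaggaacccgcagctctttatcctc
Prdx1: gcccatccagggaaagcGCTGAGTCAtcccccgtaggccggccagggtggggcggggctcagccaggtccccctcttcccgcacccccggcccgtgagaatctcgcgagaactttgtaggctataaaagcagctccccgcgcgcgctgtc
Nfe2l2: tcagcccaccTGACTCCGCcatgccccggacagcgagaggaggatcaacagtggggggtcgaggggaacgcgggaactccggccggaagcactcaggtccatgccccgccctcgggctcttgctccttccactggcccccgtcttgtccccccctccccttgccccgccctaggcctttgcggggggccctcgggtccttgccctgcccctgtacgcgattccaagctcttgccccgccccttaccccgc
In Gclm, Txnrd1 and Prdx1 the core is read on the strand opposite to the gene, and in Nfe2l2 on the gene's own strand. With the first transcribed base as 0, the match of Gclm runs from -134 to -126, that of Txnrd1 from -92 to -84, that of Prdx1 from -133 to -125 and that of Nfe2l2 from -240 to -232. The match of Srxn1 lies after the start, from 28 to 36. The match of Prdx1 overlaps an AP-1 motif, TGANTCA, which 7.8% of all windows hold, and none of the other 4 matches does. The Keap1 window and the other 2 windows of Txnrd1 held none. A match of these letters is no evidence of binding.

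All 9 genes were above background, which was set at a log2 intensity of 3.91 by olfactory and vomeronasal receptor genes. Intensities of different probe sets are not set against each other here, since a probe set's brightness depends on its probes. The MC arrays differed among themselves. The mean log2 intensity of 18 enterocyte markers was 8.29 to 10.02 in the 12 exposed arrays, against 8.52, 10.51 and 10.55 in MC replicates 1, 2 and 3, so that MC replicate 1 lay within the exposed arrays. The markers of crypt base stem cells ran the other way, with a mean of 8.73 to 9.13 in the exposed arrays against 9.05, 8.31 and 7.90 in MC replicates 1, 2 and 3. Gclc, Gclm, Gsr and Srxn1 spread more among the MC arrays than within any source. Since the fit gave each gene 1 variance for all groups, errors and p-values set against the MC are too small for these 4 genes. Errors and p-values between sources use the same variance, so the MC spread makes them larger for these 4 genes. The mean log2 intensity of the leukocyte, fibroblast and endothelium marker lists was 3.69 to 4.59 over the arrays. Of their genes, 4 of 7, 4 of 7 and 1 of 6 averaged above background, the highest being Lyz2 at 6.39, Cd68 at 6.12, Vim at 5.26 and Col1a1 at 5.22, while the defining Ptprc, at 3.60, Pdgfra, at 3.56, and Pecam1, at 3.82, did not. In cultures of several cell types, more cells of a type and more RNA per cell cannot be told apart.

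**Figure D1:**
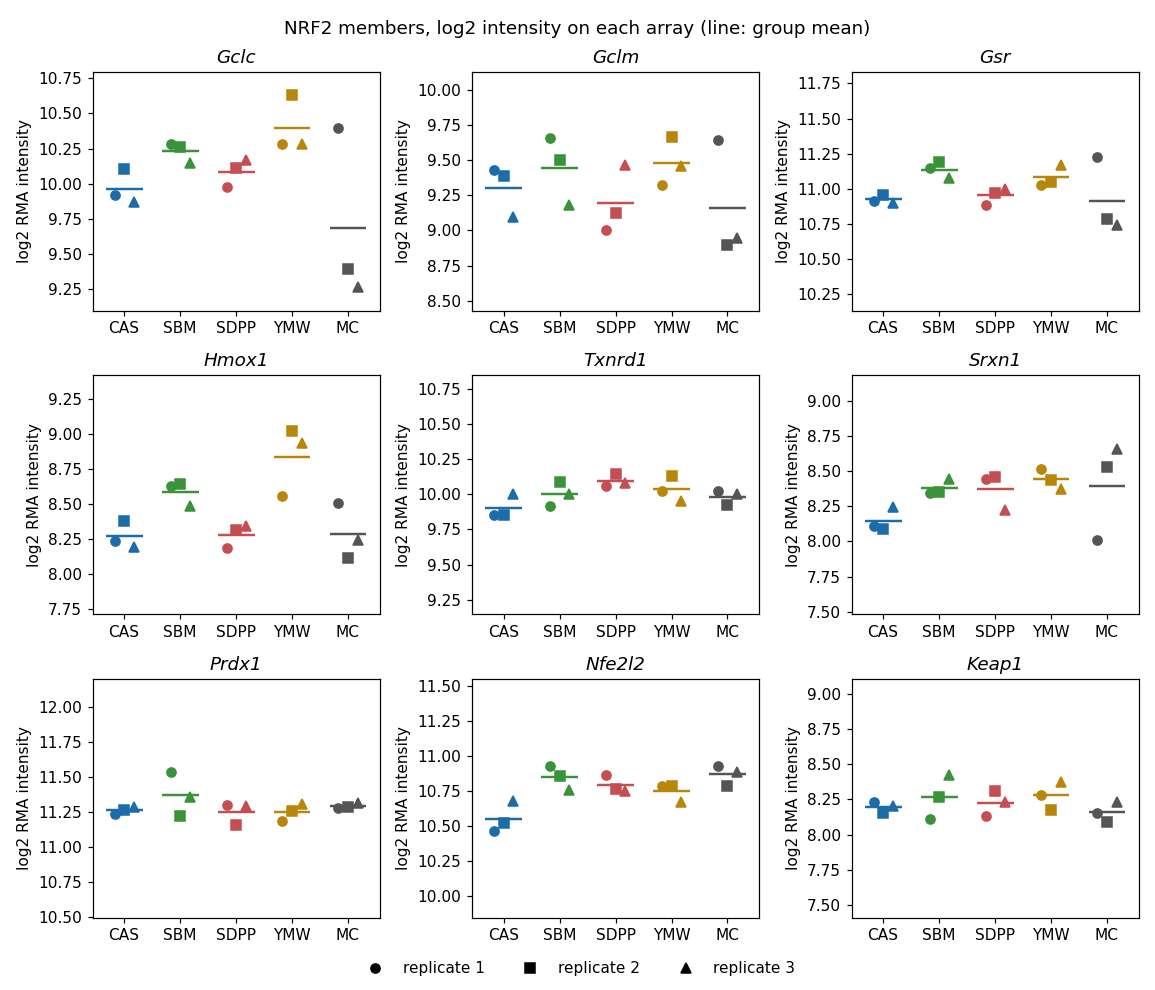
Log2 RMA intensity of the 9 genes (vertical axis, the same span of 1.7 log2 units in each panel) on each array of the CAS, SBM, SDPP, YMW and MC groups, with a symbol per replicate number and a line at the group mean. Gclc, Gclm and Gsr of MC replicate 1 lie near the highest exposed arrays, and those of MC replicates 2 and 3 below all 12 exposed arrays.

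Glutathione is made by a ligase of 2 subunits, the catalytic GCLC and the modifier GCLM, and its oxidised form is returned to the reduced form by glutathione reductase, the product of Gsr. Gclc (chr9:77754535-77794489, build GRCm38.p6 as for all genes here) gave log2 intensities of 10.28, 10.63 and 10.28 in YMW, 10.28, 10.26 and 10.15 in SBM, 9.98, 10.11 and 10.17 in SDPP and 9.92, 10.11 and 9.87 in CAS. In the MC, Gclc had 10.39, 9.39 and 9.26. All 12 exposed arrays thus lay above MC replicates 2 and 3, and 11 of them lay below MC replicate 1. The YMW mean was 10.40 ± 0.20 against 9.68 ± 0.62 in the MC (SD, n = 3 each). Gclc rose by a log2 fold change of 0.71 with YMW (SE 0.21), past the study's threshold of an unadjusted p under 0.05 and at least 1.5-fold, with an unadjusted p of 0.0044 and a Benjamini-Hochberg adjusted p of 0.124 in limma. The call was lost without MC replicate 2, at 0.57, and without MC replicate 3, at 0.50, and the difference was 0.0038 with MC replicate 1 as the only MC array.

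The other sources gave smaller differences of Gclc against the MC, at 0.55 for SBM (SE 0.21, unadjusted p = 0.021 in limma), 0.40 for SDPP (SE 0.21, unadjusted p = 0.077) and 0.28 for CAS (SE 0.21, unadjusted p = 0.21). None of these passed the threshold. Without MC replicate 1, Gclc passed it with every source, at 1.07 for YMW, 0.90 for SBM, 0.76 for SDPP and 0.63 for CAS, and the limma adjusted p was 0.000714 or lower. With MC replicate 1 as the only MC array the same differences were 0.0038, -0.16, -0.31 and -0.43. The direction of Gclc against the medium control thus rests on which MC arrays are used.

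Gclm (chr3:122245487-122267215) had 9.32, 9.66 and 9.46 in YMW, 9.66, 9.50 and 9.18 in SBM, 9.01, 9.12 and 9.47 in SDPP and 9.43, 9.39 and 9.09 in CAS, against 9.65, 8.90 and 8.95 in the MC. Every source overlapped the MC through replicate 1. The log2 differences were 0.32 for YMW (SE 0.19, 95% interval -0.087 to 0.73), 0.28 for SBM (interval -0.12 to 0.69), 0.035 for SDPP and 0.14 for CAS. Without MC replicate 1 they were 0.56, 0.52, 0.28 and 0.38, all still under 1.5-fold.

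The reductase gene Gsr (chr8:33653238-33698162) varied less. Its log2 intensities were 11.02, 11.05 and 11.17 in YMW, 11.14, 11.19 and 11.08 in SBM, 10.89, 10.97 and 11.00 in SDPP and 10.92, 10.95 and 10.90 in CAS, against 11.22, 10.78 and 10.74 in the MC. MC replicate 1 was the highest of all 15 arrays and MC replicates 2 and 3 the lowest. The difference from the MC was 0.22 for SBM (SE 0.10, unadjusted p = 0.043 and adjusted p = 0.26 in limma), 0.16 for YMW (unadjusted p = 0.12), 0.037 for SDPP and 0.0084 for CAS. With MC replicate 1 as the only MC array, SBM, YMW, SDPP and CAS were at -0.087, -0.14, -0.27 and -0.30, all below 0.

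Hmox1 (chr8:75093618-75100593), which encodes the inducible haem oxygenase that opens the haem ring to biliverdin, iron and carbon monoxide, was the gene with the largest spread between sources. It gave 8.56, 9.02 and 8.94 in YMW, 8.62, 8.64 and 8.49 in SBM, 8.19, 8.32 and 8.34 in SDPP and 8.24, 8.38 and 8.20 in CAS, against 8.50, 8.11 and 8.24 in the MC. The 3 YMW arrays lay above the 3 MC arrays, and the SDPP and CAS arrays lay among them. The YMW mean was 8.84 ± 0.24 and the MC mean 8.29 ± 0.20 (SD, n = 3 each). The log2 difference was 0.55 with YMW (SE 0.12, unadjusted p = 0.00043, adjusted p = 0.085 in limma), or 1.47-fold, just under the limit of 1.5-fold. Without MC replicate 1 it was 0.66 and without YMW replicate 1 it was 0.69, which passed the limit, and with MC replicate 1 as the only MC array it was 0.33. With SBM the difference was 0.30 (SE 0.12, unadjusted p = 0.027). With SDPP it was -0.0040 (95% interval -0.26 to 0.26) and with CAS -0.016 (interval -0.28 to 0.24), and the signs of these differences turned under a second quantile normalization and with array weights.

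The thioredoxin branch moved little. Thioredoxin reductase, the product of Txnrd1, returns thioredoxin to its reduced form with electrons from NADPH. Txnrd1 (chr10:82833951-82897724) had 10.03, 10.13 and 9.95 in YMW, 9.92, 10.09 and 10.00 in SBM, 10.06, 10.14 and 10.08 in SDPP and 9.85, 9.85 and 10.00 in CAS, against 10.03, 9.93 and 10.00 in the MC. The 3 SDPP arrays lay above the 3 MC arrays, by a mean of 0.11 (SE 0.071, 95% interval -0.040 to 0.26, unadjusted p = 0.14 in limma). The other sources overlapped the MC, with differences of 0.052 for YMW, 0.019 for SBM and -0.082 for CAS.

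Srxn1 (chr2:152105524-152111376) encodes sulfiredoxin, which repairs over-oxidised peroxiredoxins. It had 8.52, 8.44 and 8.37 in YMW, 8.35, 8.35 and 8.44 in SBM, 8.44, 8.46 and 8.23 in SDPP and 8.11, 8.09 and 8.24 in CAS, against 8.01, 8.53 and 8.66 in the MC. MC replicate 1 was the lowest of the 15 arrays and MC replicates 2 and 3 the highest, the reverse of Gclc, Gclm and Gsr. The lowest source mean was that of CAS, at 8.15 ± 0.084 against 8.40 ± 0.34 in the MC (SD, n = 3 each), a difference of -0.25 (SE 0.13, unadjusted p = 0.078 in limma). It was -0.45 without MC replicate 1 and 0.14 with MC replicate 1 alone. The differences of SBM, SDPP and YMW from the MC were -0.019, -0.023 and 0.046, with an SE of 0.13. The signs for SBM and SDPP turned under a second quantile normalization, that for SBM under median centring and that for YMW with array weights.

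Prdx1 (chr4:116685599-116700000), the gene of a peroxiredoxin that reduces hydrogen peroxide with electrons from thioredoxin, differed little between groups. Its log2 intensities were 11.19, 11.26 and 11.31 in YMW, 11.54, 11.22 and 11.35 in SBM, 11.30, 11.16 and 11.29 in SDPP and 11.24, 11.27 and 11.29 in CAS, against 11.28, 11.28 and 11.31 in the MC. The highest array was SBM replicate 1, and no source was apart from the MC. The differences were -0.039 for YMW, 0.080 for SBM, -0.041 for SDPP and -0.027 for CAS (SE 0.072 each), and those below 0 turned under a second quantile normalization. A further probe set with this symbol, with a mean of 11.04 over all arrays against 11.29 for the one used, was also highest in SBM replicate 1, at 11.32. Prdx1 has near-identical copies in the genome, so its signal may include theirs.

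Of the regulators, Nfe2l2 had its lowest values in CAS. Nfe2l2 (chr2:75675513-75704663) had 10.46, 10.52 and 10.68 in CAS, 10.93, 10.86 and 10.76 in SBM, 10.86, 10.77 and 10.75 in SDPP and 10.79, 10.79 and 10.67 in YMW, against 10.93, 10.79 and 10.89 in the MC. The 3 CAS arrays lay below the 3 MC arrays, and the other sources overlapped the MC. The CAS mean was 10.55 ± 0.11 against 10.87 ± 0.073 in the MC (SD, n = 3 each). The log2 difference of -0.31 (SE 0.072, 95% interval -0.47 to -0.16) had an unadjusted p of 0.00064 and an adjusted p of 0.068 in limma, and at 1.24-fold it did not reach the fold limit. It ranged from -0.38 to -0.27 when any array was left out, was -0.38 with MC replicate 1 as the only MC array, and was -0.15 (unadjusted p = 0.072) after a second quantile normalization. The other differences were -0.021 for SBM, -0.075 for SDPP and -0.12 for YMW (SE 0.072 each), and these turned positive under the second quantile normalization.

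Keap1 (chr9:21229730-21239332), the gene of the adaptor that marks NRF2 for degradation, had 8.23, 8.15 and 8.21 in CAS, 8.11, 8.27 and 8.42 in SBM, 8.13, 8.31 and 8.23 in SDPP and 8.28, 8.18 and 8.37 in YMW, against 8.15, 8.09 and 8.23 in the MC. All groups overlapped. The 4 source means were above the MC mean by 0.040 to 0.12 (SE 0.089), and the highest upper end of their 95% intervals was 0.31.

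**Figure D2:**
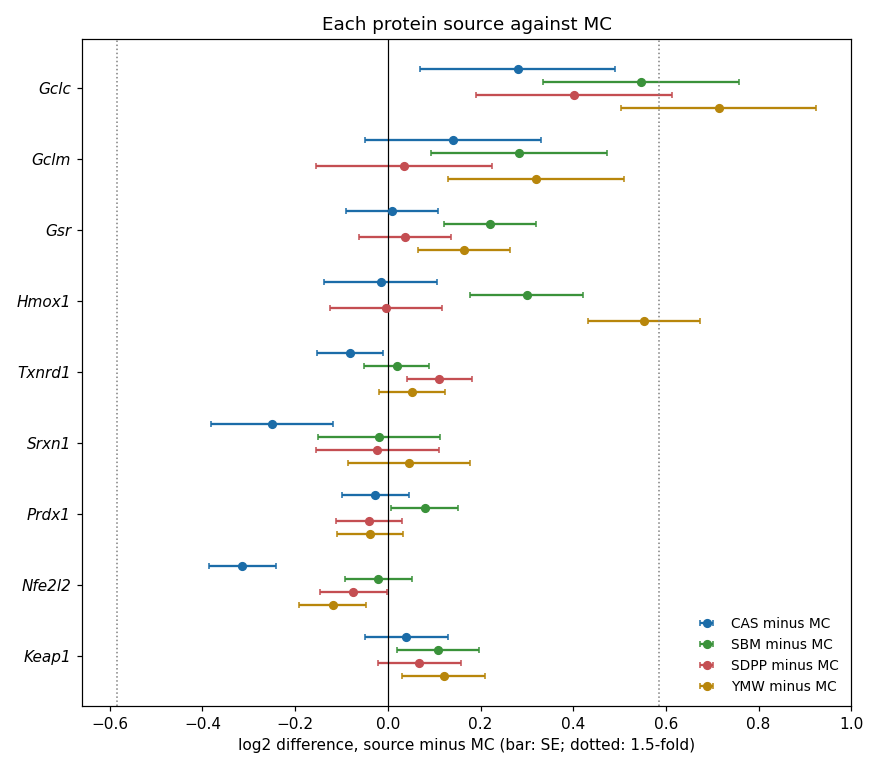
Log2 difference of each protein source from the MC (horizontal axis) for the 9 genes, with a point per source, bars of 1 SE and dotted lines at 1.5-fold. Only the YMW point of Gclc, at 0.71, lies beyond a dotted line, and the YMW point of Hmox1, at 0.55, lies just inside it.

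Counted together, 1 of the 9 genes passed the study's threshold upward with YMW, where 1.74% of all 18820 genes did. None passed in either direction with CAS, SBM or SDPP, where 3.85%, 3.5% and 1.63% of all genes did, and none passed for the mean of the 4 sources, where 3.35% did. No gene of the group reached an adjusted p under 0.05 in limma, and at an unadjusted p under 0.05 without a fold limit there were 2 with YMW, 3 with SBM, none with SDPP and 1 with CAS. Of all genes, 0.00531%, 0.00531%, 0% and 0.654% reached the adjusted p and 19%, 18.2%, 12% and 16.5% the unadjusted p in these 4 comparisons, in that order of sources. The groups did not overlap upward for 1 gene with YMW (Hmox1) and 1 with SDPP (Txnrd1), where 7.42% and 4.87% of all genes were so placed, and downward for 1 with CAS (Nfe2l2), where 7.59% were. The median log2 difference over the 9 genes was 0.12 for YMW, 0.11 for SBM, 0.035 for SDPP and -0.016 for CAS, against 0.019, -0.0095, 0.0033 and -0.0023 over all genes. These 4 comparisons use the same 3 MC arrays. Without MC replicate 1, 2 genes passed with YMW, Gclc and Hmox1, and 1 with each other source, Gclc. In that fit 9.53% of all genes passed with YMW, 9.4% with SBM, 7.33% with SDPP and 9.08% with CAS. For the mean of the 4 sources against the MC, limma gave 0.49 for Gclc (adjusted p = 0.104), 0.21 for Hmox1 (adjusted p = 0.212) and -0.13 for Nfe2l2 (adjusted p = 0.181), and the other 6 genes had an unadjusted p above 0.05.

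Means of the protein sources do not use the MC arrays, though the errors and p-values between sources do, through the shared variance. CAS had the lowest mean of the 4 sources for 7 of the 9 genes, all but Gclm and Prdx1. All 9 genes had a lower mean in CAS than in SBM, or 8 of 9 without SBM replicate 3, and 8 of 9 had a lower mean in CAS than in YMW, with Prdx1 the exception at 0.012. For 5 genes, Gclc, Gsr, Hmox1, Srxn1 and Nfe2l2, the 3 CAS arrays lay below the 3 SBM arrays, where 5.39% of all genes were so placed. For 4 of them, all but Nfe2l2, the CAS arrays also lay below the YMW arrays, where 7.72% of all genes were so placed. The median difference over the 9 genes was -0.21 for CAS against SBM and -0.18 for CAS against YMW, against 0.0065 and -0.020 over all genes. None of these differences passed the threshold, which 0.276% of all genes did between CAS and SBM and 0.244% between CAS and YMW, and none had an adjusted p under 0.05, which 0.0638% and 0.0372% of all genes had. Both comparisons use the same CAS arrays.

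The lowest unadjusted p-values of these in limma were in Hmox1 and Nfe2l2. The variance shared with the MC arrays raises the p-values of Gclc, Gsr and Srxn1. Whether the order would differ without the MC arrays was not tested. Hmox1 was lower in CAS than in YMW by a log2 difference of -0.57 (SE 0.12, unadjusted p = 0.00034, adjusted p = 0.19 in limma), at 8.27 ± 0.094 against 8.84 ± 0.24 (SD, n = 3 each). It was lower in CAS than in SBM by -0.32 (unadjusted p = 0.021, adjusted p = 0.79). Nfe2l2 was lower in CAS than in SBM by -0.29 (SE 0.072, unadjusted p = 0.0011, adjusted p = 0.297), than in SDPP by -0.24 (unadjusted p = 0.005, adjusted p = 0.999) and than in YMW by -0.20 (unadjusted p = 0.017, adjusted p = 0.683). The CAS arrays of Nfe2l2 did not overlap those of SBM or SDPP, and CAS replicate 3, at 10.68, lay just above YMW replicate 3, at 10.67. Gsr differed by -0.21 between CAS and SBM (SE 0.099, unadjusted p = 0.050 in limma). Its means there were 10.92 ± 0.027 and 11.14 ± 0.056 (SD, n = 3 each).

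Srxn1, Gclc and Txnrd1 gave further differences of CAS, none past the threshold. Srxn1 differed by -0.30 from YMW (SE 0.13, unadjusted p = 0.041 in limma), -0.23 from SBM (unadjusted p = 0.10) and -0.23 from SDPP (unadjusted p = 0.11). Gclc differed by -0.43 from YMW (SE 0.21, 95% interval -0.89 to 0.018) and -0.27 from SBM. Txnrd1 was lower in CAS than in SDPP without overlap, by -0.19 (SE 0.071, unadjusted p = 0.016). Between CAS and SDPP, 2 of the 9 genes did not overlap downward, Txnrd1 and Nfe2l2, where 4.63% of all genes were so placed, and Hmox1 and Gsr differed by -0.012 and -0.028. None of the 9 passed the threshold in this comparison, where 0.175% of all genes did.

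**Figure D3:**
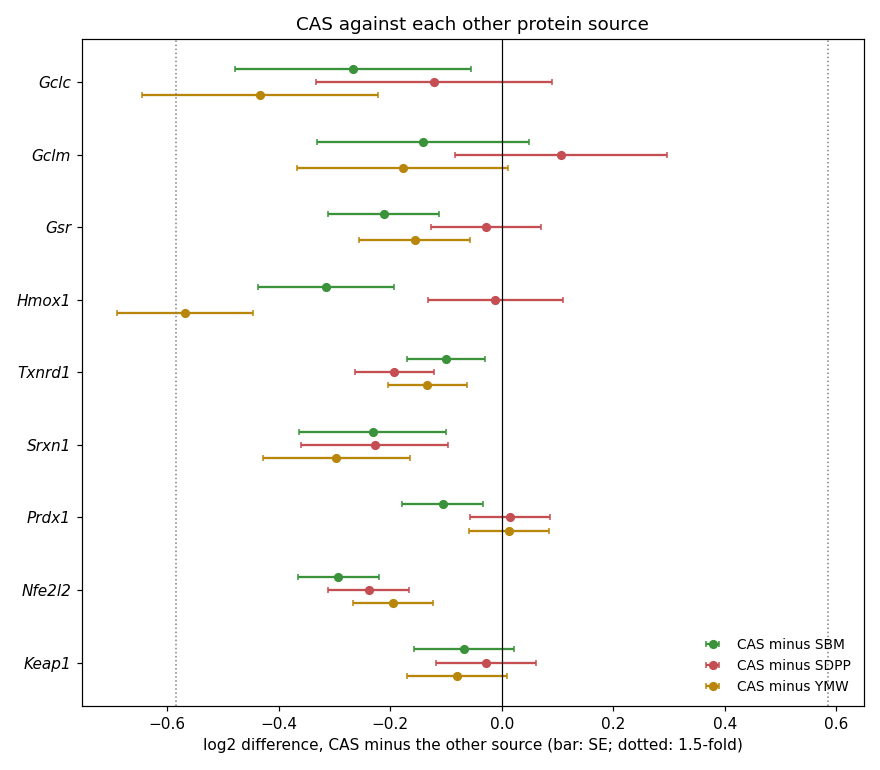
Log2 difference of CAS from each other protein source (horizontal axis) for the 9 genes, with a point per source, bars of 1 SE and dotted lines at 1.5-fold. All 9 points of CAS minus SBM lie below 0, and none of the 27 points passes a dotted line.

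Among the other sources, SDPP had lower means than SBM and YMW for Hmox1, Gclc, Gclm and Gsr. Hmox1 was higher in SBM than in SDPP by 0.30 (SE 0.12, unadjusted p = 0.025 in limma) and Gsr by 0.18 (SE 0.10, unadjusted p = 0.084), and these 2 genes did not overlap, where 2.89% of all genes were so placed upward. Hmox1 was lower in SDPP than in YMW by -0.56 (SE 0.12, unadjusted p = 0.00040, adjusted p = 0.971), Gclc by -0.31 (unadjusted p = 0.16) and Gsr by -0.13 (unadjusted p = 0.22), and these 3 genes did not overlap, where 5.36% of all genes were so placed downward. SBM and YMW overlapped for all 9 genes. Their largest difference was in Hmox1, at -0.25 (SE 0.12, 95% interval -0.51 to 0.0069). The threshold was passed by none of the 9 genes in these comparisons, and by 0.0372% of all genes between SBM and SDPP, 0.0531% between SDPP and YMW and 0.138% between SBM and YMW.

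Ordered by mean, Gclc ran YMW, SBM, SDPP, CAS and MC, Gclm YMW, SBM, CAS, SDPP and MC, and Gsr SBM, YMW, SDPP, CAS and MC. Hmox1 ran YMW, SBM, MC, SDPP and CAS. No neighbours in these orders differed at an unadjusted p under 0.05 in limma except SBM and MC for Hmox1, with a difference of 0.30 (unadjusted p = 0.027). For Nfe2l2 the order was MC, SBM, SDPP, YMW and CAS, and its neighbours with such a p were CAS and YMW, with -0.20 (unadjusted p = 0.017). The orders of Txnrd1, Srxn1, Prdx1 and Keap1 held no such neighbours.

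A list of 27 further NRF2 targets, among them enzymes that conjugate or reduce xenobiotics and the export pumps of conjugates, also had lower means in CAS than in SBM and YMW. Of 25 that were measured, 22 had a lower mean in CAS than in SBM and 24 a lower mean in CAS than in YMW. The median log2 difference was -0.20 and -0.23, against 0.0065 and -0.020 over all genes. At an unadjusted p under 0.05 in limma, 8 were lower and 1 higher in CAS than in SBM, and 5 were lower and none higher in CAS than in YMW, where 2.05% and 3.57% of all genes were lower at such a p. The threshold was passed downward by Cbr3 in each comparison, where 0.0744% of all genes passed downward in each, and none had an adjusted p under 0.05. When any array was left out, 22 to 24 of 25 were lower in CAS than in YMW and 20 to 23 of 25 lower in CAS than in SBM. Under the other scalings and array weights these were 24, and 23 or 24. Over the list as a whole the low values were shared by SDPP, but not for every gene. Osgin1 passed the threshold downward in CAS against SDPP, at means of 6.34 and 6.99. It was the only one of the list, where 0.175% of all genes passed in either direction. In CAS against SDPP, 17 of 25 were lower with a median of -0.019, or 13 of 25 with a median of -0.0033 after a second quantile normalization, while 20 of 25 were higher in SBM than in SDPP (median 0.091) and 20 of 25 lower in SDPP than in YMW (median -0.16).

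Cbr3, a carbonyl reductase, had log2 intensities of 6.98, 6.98 and 7.10 in CAS, against 7.61, 7.51 and 7.81 in SBM and 7.57, 7.71 and 7.66 in YMW. The CAS arrays lay below all arrays of SBM and YMW. The differences were -0.62 (SE 0.18, unadjusted p = 0.0034, adjusted p = 0.432 in limma) and -0.63 (SE 0.18, unadjusted p = 0.0033, adjusted p = 0.441). In SDPP, Cbr3 had 7.13, 7.44 and 7.14, above all CAS arrays and below all SBM and YMW arrays. The quinone reductase gene Nqo1, chosen after its values were seen as the best known target on the list, had 8.31, 8.22 and 8.11 in CAS, 8.79, 8.70 and 8.51 in SBM, 8.19, 8.61 and 8.48 in YMW and 7.98, 8.33 and 8.15 in SDPP, against 8.55, 7.98 and 7.82 in the MC. Nqo1 was lower in CAS than in SBM without overlap, by -0.45 (SE 0.16, unadjusted p = 0.015, adjusted p = 0.734).

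**Figure D4:**
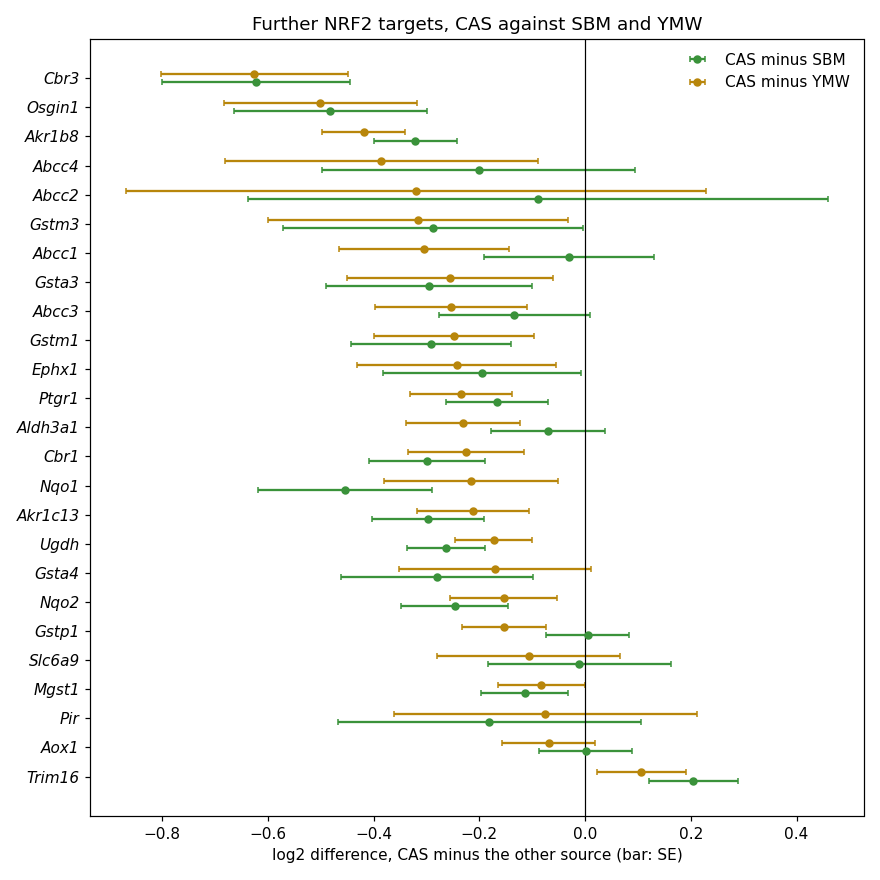
Log2 difference of CAS from SBM and from YMW (horizontal axis) for the 25 measured genes of the list of further NRF2 targets, ordered by the difference from YMW, with bars of 1 SE. All but Trim16 lie below 0 against YMW, and Cbr3 has the most negative values, -0.62 against SBM and -0.63 against YMW.

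Against the MC, some of the 97 measured genes of 7 lists on the wider pathway passed the threshold in each direction. There were 7 higher and 5 lower with YMW, 4 and 3 with SBM, 1 and 4 with SDPP and 1 and 7 with CAS, where 3.87% of all genes passed with YMW and the shares given above with the others. With YMW, the source with the most such genes, 1 of 15 regulators and partners of NRF2 rose, as did 1 of 16 genes of glutathione supply and use, 1 of 14 thioredoxins and peroxiredoxins, 1 of 9 genes of NADPH supply, 1 of 9 of superoxide and peroxide removal and 2 of 25 further targets. Those that fell with YMW were 2 genes of glutathione supply and use, 1 of thioredoxins and peroxiredoxins, 1 of 9 of haem breakdown and iron storage and 1 further target. The median log2 difference of the 97 genes was -0.025 for YMW, -0.039 for SBM, -0.067 for SDPP and -0.075 for CAS. The counts of 12, 7, 5 and 8 became 24, 22, 21 and 22 without MC replicate 1, when the share of all genes rose as well, to the values given above for that fit. They became 0, 0, 0 and 1 with MC replicate 1 as the only MC array, where 0.494%, 0.611%, 0.744% and 0.834% of all genes passed. Without MC replicate 3 they were 2, 1, 1 and 4, where 1.13%, 0.723%, 0.452% and 1.26% passed. With CAS, 3 genes were lower at an adjusted p under 0.05 in limma, Osgin1, Gstm1 and Ptgr1, and no gene of the lists was with the other sources. The means of Gstm1 and Ptgr1 were below that of the MC in every source, however. Gstm1 averaged 9.73 in CAS, 9.73 in SDPP, 9.98 in YMW and 10.02 in SBM, against 10.44 in the MC. For Ptgr1 these means were 9.95, 10.02, 10.18 and 10.11, against 10.55. With CAS, Ptgr1 fell by 0.60 (adjusted p = 0.015 in limma) and Gstm1 by 0.72 (adjusted p = 0.049). Both were named after their values were seen. Gstm1 had 9.63, 9.83 and 9.72 in CAS against 9.93, 10.73 and 10.67 in the MC. Its MC arrays spread more than those of any source, so its p-values against the MC are too small. Ptgr1 had 9.91, 10.01 and 9.91 in CAS against 10.35, 10.58 and 10.72 in the MC.

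With CAS, 6 of the 25 further targets fell and none rose, where 2.04% of all genes fell. With SDPP, 4 fell and none rose, where 1.63% of all genes passed in either direction. Osgin1, named for its response to oxidative stress, averaged 6.34 ± 0.32 in CAS and 7.21 ± 0.33 in the MC (SD, n = 3 each), without overlap, and fell by 0.86 (SE 0.18, adjusted p = 0.049 in limma). The glutathione transferase Gsta4 fell by 0.81 (SE 0.18, adjusted p = 0.062), also without overlap, and Gstm3 fell by 0.88 (SE 0.28, adjusted p = 0.14), with overlap. Gsta4 fell with SDPP and YMW too, by 0.59 and 0.64, and had 10.89, 11.12 and 11.28 in CAS against 11.40, 12.06 and 12.26 in the MC. Gstm3 fell with SDPP by 0.73.

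Cbr3 rose with YMW by 0.92 (SE 0.18, adjusted p = 0.071 in limma) and with SBM by 0.91 (SE 0.18, adjusted p = 0.105), with no overlap between these arrays and the MC arrays at 7.21, 6.73 and 6.25. Sesn2, the gene of a sestrin induced by stress, rose with YMW by 0.73 (SE 0.18, adjusted p = 0.092) and with SBM by 0.66, and had 8.42, 8.34 and 8.32 in YMW, above the MC values of 8.16, 7.54 and 7.18. Sesn1 of the same family fell with YMW by 0.61. The mitochondrial dehydrogenase gene Idh2, a source of NADPH, rose with YMW by 0.73 and with SBM by 0.61. Nfe2l3, which encodes a relative of NRF2, rose with CAS by 0.79 and with YMW by 0.74, at low log2 intensities. Nox1, an oxidase that makes superoxide, rose with SDPP by 0.85 and with YMW by 0.72.

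In the list of glutathione supply and use, Gpx2, the glutathione peroxidase of the gastrointestinal epithelium, rose with YMW by 0.66 (SE 0.27, adjusted p = 0.212 in limma), and the widely expressed Gpx1 fell with SBM by 0.68 and with YMW by 0.63. Glutaredoxin, the product of Glrx, fell with YMW by 0.81 (SE 0.19, adjusted p = 0.092) and with SBM by 0.62. The folate and haem carrier Slc46a1, a gene of absorptive enterocytes, fell with YMW by 1.42, with SBM by 1.39 and with CAS by 1.30 (SE 0.50), and its MC values were 6.73, 8.92 and 9.21 in replicates 1, 2 and 3. For Slc46a1, Gpx1, Gpx2, Idh2, Sesn1, Nox1 and Nfe2l3 the exposed arrays overlapped the MC through replicate 1. The enterocyte markers moved in the same arrays, as given above, and their part in these differences was not tested.

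Slc7a11, the gene of the cystine carrier that feeds glutathione synthesis, was among the 5 genes most like Gclc. Over all 15 arrays the 5 highest Pearson correlations with Gclc among 12879 genes above background were those of Nupr1 (0.963), Slc7a11 (0.959), Crct1 (0.958), Emp2 (0.957) and Zfp760 (0.952). MC replicates 2 and 3 lie apart from the rest, and over the 12 exposed arrays, where other genes were not ranked, the correlations of these 5 were 0.85, 0.944, 0.834, 0.873 and 0.816. Slc7a11 had 9.76, 10.08 and 9.49 in YMW, 9.69, 9.73 and 9.50 in SBM, 9.28, 9.54 and 9.59 in SDPP and 9.21, 9.50 and 9.30 in CAS, against 9.96, 8.95 and 8.81 in the MC. Its difference from the MC was 0.54 with YMW (SE 0.23, unadjusted p = 0.036 in limma), under the fold limit. Arrays of 1 experiment share their processing, and these correlations are descriptions of these arrays.

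**Figure D5:**
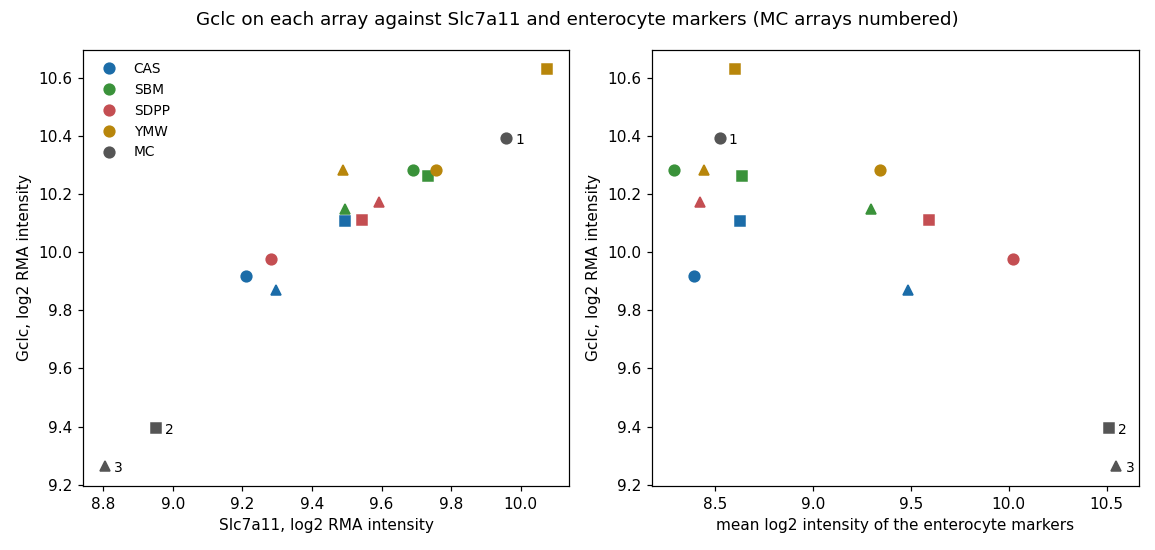
Log2 RMA intensity of Gclc on each array (vertical axis) against that of Slc7a11 (left panel) and against the mean log2 intensity of 18 enterocyte markers (right panel), coloured by group with a symbol per replicate number, and the MC arrays numbered. MC replicate 1 lies among the exposed arrays, and MC replicates 2 and 3 have the lowest Gclc and Slc7a11 and the highest enterocyte markers of the 15 arrays.

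For Hmox1 the 5 most alike genes were Gm13033 (0.898), Gadd45b (0.863), AI413582 (0.861), 2310033P09Rik (0.86) and Gstt2 (0.856). Gadd45b is induced by stress and Gstt2 encodes a glutathione transferase. Without YMW replicates 2 and 3, the arrays farthest from the median of Hmox1, the correlations were 0.722, 0.598, 0.61, 0.839 and 0.756. Within the 9 genes, Gclc and Hmox1 had a correlation of 0.906 over the 12 exposed arrays and 0.761 over all 15, and Gclc and Gsr 0.66 and 0.847. Nfe2l2 had its highest correlation over the exposed arrays with Srxn1, at 0.737, and Gclc and Srxn1 had 0.46 over the exposed arrays and -0.386 over all 15.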

How the data were processed

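RNA from 15 samples was hybridised to mouse gene 1.1 ST arrays. The authors deposited 1 table of intensity values on a linear scale after RMA, which corrects background, normalizes by quantiles and summarises probes, and the version of the software that made this table is not given in the sources used here. The log2 of these values was taken. Platform annotation gave 21218 of 35556 probe sets 1 gene symbol, 1881 several and 12457 none, and the probe set with the highest mean stood for each of 18820 genes. Current symbols, coordinates and promoter windows were those of RefSeq for GRCm38.p6. The members and lists were chosen with earlier results of these data known.

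Groups followed the sample titles. In place of the intensity-based moderated statistic of the study's methods, which was an alternative, 5 group means were fitted with limma 3.58.1 in R 4.3.3 to all 15 arrays, with an intensity trend in the prior variance, and 11 comparisons were drawn. The study's threshold asked for 1.5-fold or more, 0.585 on the log2 scale, with an unadjusted p below 0.05. The paper's methods state it so, while its footnotes print a log fold change above 1.5. A cut of 1.5 on the log2 scale was an alternative here. Every p is from this limma fit, adjusted p-values are Benjamini-Hochberg values over 18820 genes, and intervals cover 95%. The titles call the replicates biological, and the paper made organoids from 3 mice, but the labels do not tie arrays to mice. The p-values thus measure the spread between these samples, part of which may be technical. With 3 arrays per group, their number limits the precision. The script was tested on simulated arrays, whose spread was taken from the exposed arrays and left out that of the MC. All 9 members are named, of each wider list up to 4 genes with the largest change past the threshold against the MC, and the 5 genes most correlated with each of the 2 targets that varied most. Alternatives changed the variance prior, replicate block, arrays in the fit, background filter, scaling, array weights, thresholds and probe set rule.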

Additional observations from a re-analysis of the deposited data

How the results depend on the processing

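Of 1428 alternative values of 48 differences, 1324 kept direction and call, 61 changed sign, 38 became past the threshold and 5 no longer were. With MC replicate 1 as the only MC array, Gclc was -0.43 (CAS), -0.16 (SBM), -0.31 (SDPP) and -0.22 (mean of the 4 sources), Gclm -0.34 (CAS), -0.20 (SBM), -0.45 (SDPP) and -0.16 (YMW), Gsr -0.30 (CAS), -0.087 (SBM), -0.27 (SDPP) and -0.14 (YMW), Srxn1 0.14 (CAS), 0.37 (SBM) and 0.37 (SDPP), Txnrd1 -0.023 (SBM) and Hmox1 -0.010 (mean of the 4 sources). Signs also turned after a second quantile normalization for Hmox1 at 0.013 (CAS) and 0.023 (SDPP), Txnrd1 at 0.017 (CAS), Prdx1 at 0.074 (CAS), 0.048 (SDPP) and 0.066 (YMW), Srxn1 at 0.037 (SBM) and 0.0096 (SDPP), and Nfe2l2 at 0.12 (SBM), 0.045 (SDPP), 0.036 (YMW) and 0.013 (mean of the 4 sources). Median centring turned Srxn1 to 0.057 and Nfe2l2 to 0.054 (SBM) and Hmox1 to 0.015 (SDPP), and array weights, whose fit gave a convergence warning, turned Hmox1 to 0.18 (CAS) and 0.16 (SDPP), Nfe2l2 to 0.054 (SBM) and Srxn1 to -0.093 (YMW). The cause was not tested.

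When 1 array was left out, differences that changed sign ranged for Hmox1 from -0.10 to 0.093 (CAS) and -0.090 to 0.11 (SDPP), for Gsr from -0.078 to 0.16 (CAS) and -0.050 to 0.19 (SDPP), for Gclm from -0.10 to 0.28 (SDPP), for Txnrd1 from -0.025 to 0.061 (SBM), for Srxn1 from -0.21 to 0.11 (SBM), -0.22 to 0.11 (SDPP) and -0.15 to 0.18 (YMW), for Prdx1 from -0.0028 to 0.15 (SBM) and -0.064 to 0.0050 (SDPP), and for Nfe2l2 from -0.062 to 0.025 (SBM).

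The count of the 9 genes past the threshold ranged from 0 to 2 for YMW, 0 to 1 for CAS, SBM, SDPP and the mean of the 4 sources against the MC, and 0 to 1 for CAS against YMW and SDPP against YMW, when 1 array was left out. It stayed 0 for CAS against SBM, CAS against SDPP, SBM against SDPP and SBM against YMW. The last 2 changes were in Hmox1, at -0.62 without CAS replicate 2 or -0.71 without YMW replicate 1 against CAS, and at -0.59 without SDPP replicate 3 or -0.70 without YMW replicate 1 against SDPP. With array weights 3 passed for YMW and 1 each for CAS, SBM, SDPP, the mean of the 4 sources and SDPP against YMW. After a second quantile normalization 2 passed for YMW and 1 for SBM, and after median centring 1 for SBM. The share of all genes is not given for the array weights and these scalings, so the counts cannot be set beside it. With no limit on the fold 2 passed for YMW, 3 for SBM and 1 for CAS, where 19%, 18.2% and 16.5% of all genes did. There were 2 for CAS against SBM and 3 for CAS against YMW, all lower in CAS, where 2.05% and 3.57% of all genes were lower. A further 3 passed for the mean of the 4 sources, 2 for CAS against SDPP, 1 for SBM against SDPP and 1 for SDPP against YMW. At an adjusted p under 0.05, at a log2 fold change above 1.5, and with MC replicate 1 alone, 0 passed for YMW.

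Of the 97 wider genes, 12 (YMW), 7 (SBM), 5 (SDPP) and 8 (CAS) passed against the MC, and with 1 array left out 2 to 24, 1 to 22, 1 to 21 and 4 to 22 did. With array weights 24, 22, 15 and 19 passed, for which the share of all genes is not given. With no limit on the fold 38, 28, 19 and 29 did, where 19%, 18.2%, 12% and 16.5% of all genes did. At an adjusted p under 0.05 in limma 0, 0, 0 and 3 passed, where 0.00531%, 0.00531%, 0% and 0.654% of all genes did. At a log2 fold change above 1.5 there were 0 in each. On the arrays of the 2 groups alone 7 (YMW), 4 (SBM) and 3 (SDPP) passed.

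By the correlations below, the replicate number did not pair the arrays. Such correlations cannot exclude that a number marks a mouse, since the deviations also hold the spread in enterocyte markers between arrays. The 30 pairs of the same number in different groups had a median correlation of deviations of -0.161, with 9 over 0.1, against 0.104 for 60 pairs of different numbers, and 2 of 15 arrays correlated best with their own number. With the replicate block, the counts past the threshold were unchanged, at 1, 0, 0 and 0 of the 9 genes for YMW, SBM, SDPP and CAS, and the difference of Gclc was 0.71 with YMW (adjusted p = 0.167 in limma).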
